A study of Mus musculus with 267 samples.

Results

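Interleukin 4 (IL-4) raised acetylation of lysine 27 of histone H3 (H3K27ac) at 902 of 77955 regions of open chromatin at each of 3 times, 1, 6 and 24 h, in bone marrow-derived macrophages (BMDMs) of C57BL/6J mice. Each region is 1000 bp wide and centred on a peak of accessible chromatin. The regions were chosen by their own H3K27ac tag counts: the replicate mean plus 1 had to be at least 2.5 times the basal mean plus 1, with the larger mean at least 16 normalized tags, at all 3 times. A normalized tag is a read scaled to a library total of 10000000. The H3K27ac time course of C57BL/6J is therefore described here with no test, and tests were run only on libraries that the choice did not use. For comparison, 233 regions met the same criterion only at 1 h, 1684 only at 6 h and 836 only at 24 h.

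BMDMs are macrophages grown from bone marrow with macrophage colony-stimulating factor, M-CSF. They were left untreated (basal) or given 20 ng/ml mouse recombinant IL-4. H3K27ac had 2 C57BL/6J libraries at each time, and RNA polymerase II (Pol II) had 4 basal libraries, 1 at 1 h, 2 at 6 h and 3 at 24 h. Basal and 24 h cells of BALB/cJ, NOD/ShiLtJ, PWK/PhJ and SPRET/EiJ mice, of Egr2 fl/fl mice and of LyzM-Cre Egr2 fl/fl mice had 2 H3K27ac libraries a group, and the transcription factors had 2 libraries a group. Egr2 fl/fl mice carry Egr2 alleles flanked by loxP sites with no Cre, and LyzM-Cre deletes such alleles in myeloid cells. No value used here measures Egr2 itself in these cells, so the deletion was not checked. Nothing in the labels says whether replicates came from separate animals or cultures, so the p-values measure the spread between these samples only.

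IL-4 binds a receptor whose JAK kinases phosphorylate the transcription factor STAT6, which dimerizes, enters the nucleus and binds palindromic DNA sites. H3K27ac marks active promoters and enhancers, and Pol II at an enhancer reflects transcription of the enhancer or of the gene around it. In macrophages IL-4 gives the alternatively activated state, in which Arg1, Mgl2 and similar genes are expressed, and EGR2 is a zinc finger transcription factor that IL-4 induces in these cells.

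The STAT6 motif TTCNNNNGAA was in the central 200 bp, on either strand, of 318 of the 902 regions (35.3%) and of 6.03% of all 77955 regions. The following 200-bp centres (mm10, plus strand, 5′ to 3′) are shown because they hold this motif, marked in capitals, and lie in members near genes of the lists below or among those with the largest smallest fold.

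Slc7a14, intron of a gene for a cationic amino acid transporter-like protein, chr3:31266163-31266362: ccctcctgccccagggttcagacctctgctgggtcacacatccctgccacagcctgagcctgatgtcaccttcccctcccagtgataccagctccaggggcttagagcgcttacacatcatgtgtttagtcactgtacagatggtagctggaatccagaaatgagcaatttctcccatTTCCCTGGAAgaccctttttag

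Ang5, intergenic, near a gene for an angiogenin-family ribonuclease, chr14:43967289-43967488: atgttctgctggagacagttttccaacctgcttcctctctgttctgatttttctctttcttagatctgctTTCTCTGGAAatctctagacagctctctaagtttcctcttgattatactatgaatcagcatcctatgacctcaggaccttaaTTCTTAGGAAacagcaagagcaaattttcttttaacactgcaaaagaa

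Msx3, intergenic, near a homeobox gene, chr7:140051858-140052057: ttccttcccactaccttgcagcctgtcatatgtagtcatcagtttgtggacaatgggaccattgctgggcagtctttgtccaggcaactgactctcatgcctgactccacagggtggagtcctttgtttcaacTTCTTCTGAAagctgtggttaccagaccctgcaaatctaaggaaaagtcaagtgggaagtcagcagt

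Mgl2, intergenic, near a macrophage C-type lectin gene, chr11:70129190-70129389: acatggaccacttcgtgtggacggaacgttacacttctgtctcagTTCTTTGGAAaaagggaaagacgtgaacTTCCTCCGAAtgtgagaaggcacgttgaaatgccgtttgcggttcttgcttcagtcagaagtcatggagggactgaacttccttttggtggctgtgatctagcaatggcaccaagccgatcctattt

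Myc, intron, far from its nearest gene start, chr15:62139370-62139569: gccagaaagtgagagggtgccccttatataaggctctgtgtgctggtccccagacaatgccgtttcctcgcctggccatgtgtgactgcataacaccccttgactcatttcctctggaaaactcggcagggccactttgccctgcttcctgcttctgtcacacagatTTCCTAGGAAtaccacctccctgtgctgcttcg

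Ccl2, intergenic, near a gene for a monocyte chemoattractant, chr11:82011821-82012020: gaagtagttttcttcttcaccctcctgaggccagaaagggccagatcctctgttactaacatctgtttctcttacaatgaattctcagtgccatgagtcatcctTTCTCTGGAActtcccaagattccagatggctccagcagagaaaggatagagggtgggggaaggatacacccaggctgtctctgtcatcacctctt

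The Ang5 and Mgl2 windows held 2 copies each and the other 4 windows 1 copy. A copy of these letters is a description and does not show that STAT6 bound there. At all 6 regions the C57BL/6J STAT6 peak lists held a peak at 1, 6 and 24 h, and at 5 of them none in basal cells. The exception was Mgl2, which also had a basal STAT6 peak.

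Several libraries stood apart from their replicates and bear on the results. The 1 h H3K27ac replicates differed: replicate 1 had 12936233 tags with 44.0% in the regions, and replicate 2 had 29050468 with 20.5%. At the 902 regions their medians were 61.8 and 20.3 normalized tags. Without 1 h replicate 1 the criterion gave 344 regions, 325 of them (36.03% of the 902) among the 902, and without 1 h replicate 2 it gave 1269, of which 880 were members. Without basal replicate 1 it gave 1560, of which 825 were members. In Pol II, basal replicate 1 was the high library at the members, with a median of 10.6 normalized tags against 4.81, 3.22 and 4.05 in the others, while over all regions the 4 medians lay between 11.1 and 14.98. The 90 libraries used had totals from 5728050 to 29050468. All 8 macrophage marker genes looked at had an active promoter in basal cells, with H3K27ac from 190 normalized tags at Mertk to 848 at Spi1. No promoter region was found for the markers of T cells, B cells, mast cells and basophils, or fibroblasts and endothelium. Of the neutrophil markers only Camp had a promoter region, at 16.3 normalized tags, and of the eosinophil markers only Siglecf, at 31.9. At 24 h all 8 macrophage promoters had lower means than in basal cells, from 77.4 at Mertk to 399 at Spi1, and Camp had 8.43 and Siglecf 72.4, and the part of these shifts in the results was not tested. Of the H3K27ac tags, 69.7% and 63.8% lay in the regions in the 2 basal libraries and 46.4% and 41.2% in those at 24 h. Since these are bulk samples scaled to library totals, fewer cells of a type, less signal per cell and a smaller share of tags in regions cannot be told apart.

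H3K27ac at the members was highest at 6 h. The median of the replicate means was 7.91 normalized tags in basal cells, 43.1 at 1 h, 74.4 at 6 h and 53.3 at 24 h, and the median folds were 4.48, 7.22 and 5.16. The fold was largest at 6 h in 644 regions (71.4%), at 24 h in 183 (20.3%) and at 1 h in 75 (8.31%). By library, the medians over the members were 8.82 and 6.42 in basal cells, 61.8 and 20.3 at 1 h, 77.01 and 71.8 at 6 h and 54.3 and 50.5 at 24 h. Every IL-4 median was above both basal ones, but the regions were chosen by the means of these libraries. Over all regions, the library medians lay between 9.98 and 19.3 at every time. The members just inside the criterion lay near Plekha3, Dhx32 and Poldip3 with smallest folds of 2.5045, 2.5052 and 2.5054, and the regions just outside near Fam71a, Stx3 and Sema4b with 2.499, 2.498 and 2.497.

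**Figure D1:**
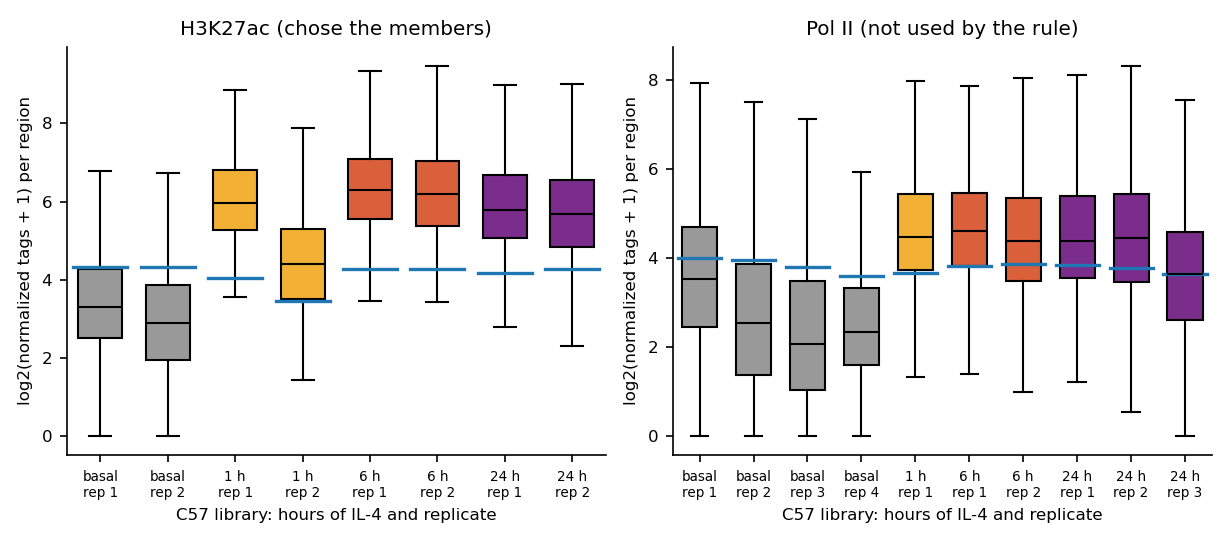
H3K27ac (left) and Pol II (right) at the 902 regions in each C57BL/6J library, as log2(normalized tags + 1). Boxes are quartiles with the median as a line, whiskers reach up to 1.5 interquartile ranges, and blue lines are the median of all 77955 regions. The H3K27ac values chose the regions, the 1 h replicates sit apart from each other, and basal Pol II replicate 1 is the highest of the 4 basal libraries.

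Most of the regions lay away from promoters. Of the 902, 419 (46.5%) were intergenic, 411 (45.6%) intronic and 42 (4.66%) at a promoter, against 32.8%, 43.5% and 16.1% of all regions. The remaining members were 10 at transcription termination sites (TTS), 9 in exons, 8 in 3′ UTRs and 3 in 5′ UTRs. Their median distance to the nearest protein-coding gene start was 28.2 kb, against 14.8 kb for all regions, 27.2 kb for regions raised only at 1 h, 22.9 kb only at 6 h and 30.7 kb only at 24 h. Within 1 kb of a gene start lay 65 members (7.21%, against 18.7% of all regions), and over 100 kb away lay 165 (18.3%, against 11.1% of all regions). Gene names below are the nearest protein-coding gene start, which need not be the gene a region acts on. The class of a region, such as intron or TTS, was annotated separately and need not refer to the named gene, also for the sequences above.

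Many members lay close together. Joining members within 12.5 kb gave 613 loci, of which 439 held 1 member and 174 held 463 members together, with 9 in the largest. There were 533 nearest genes, 339 of them with 1 member and 26 with 5 or more. Socs1, a suppressor of cytokine signalling that inhibits JAK kinases, had the most, 15, of which 13 held a 1 h STAT6 peak and 8 the STAT6 motif. Creb5, a CREB-family transcription factor gene, followed with 11 and Sfi1, a gene for a centrosome protein, with 9. The 9 Sfi1 members held no 1 h STAT6 peak, their 6 h folds were 2.53 to 4.44, and a median of 47.6% of their bases were repeat-masked. Genes with 6 to 8 members were Bhlhe40 (8), Ado and Rmi2 (7 each) and Fndc3a, Prkrip1, Zcchc2 and Zfp609 (6 each). The 5-member genes were Ahr, Akap7, Batf3, Ccl8, Cish, Cyp1b1, Fcgr2b, Fmnl2, Gm21738, Gpc1, Hmgn2, Il12a, Msx3, Otos, Slc7a14 and Tmem26. All 5 members near Cish, another inhibitor of cytokine signalling, and all 5 near Tmem26, which encodes a transmembrane protein found on alternatively activated macrophages, held a 1 h STAT6 peak. Ccl8, a chemokine gene, had 5 members with 6 h folds of 14.9 to 29.3, and Il12a, which encodes the p35 subunit of IL-12, had a member with a 6 h fold of 61.6. The Gm21738 members had a median of 83.4% repeat-masked bases, no 1 h STAT6 peak and basal means up to 144 normalized tags.

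In all, 50 members (5.54%) were at least 50% repeat-masked, where reads are hard to place. Of these, 40.0% held a 1 h STAT6 peak and 2 were called for Pol II at 24 h, with a median Pol II log2 difference of 0.69.

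Accessible chromatin was listed in basal cells at 542 members (60.1%) and at 1 h at 786 (87.1%), against 72.1% and 73.4% of all regions. At 6 h 547 members (60.6%, all regions 58.4%) and at 24 h 482 (53.4%, all regions 60.2%) were listed. An accessibility peak at 1 h alone was listed for 157 members (17.4%, all regions 9.19%), and one at all 4 times for 310 (34.4%, all regions 37.9%). Basal peaks of PU.1 or C/EBPβ, factors that mark macrophage enhancers, were in 449 members (49.8%), against 65.6% of all regions.

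STAT6 peaks at 1 h were in 654 members (72.5%), against 29.3% of all regions, 63.9% of those raised only at 1 h, 37.6% only at 6 h and 30.9% only at 24 h. In basal cells STAT6 peaks were in 171 members (18.96%, all regions 36.4%). STAT6 peaks were in 647 members at 6 h (71.7%, all regions 30.5%) and in 701 at 24 h (77.7%, all regions 44.4%). STAT6 was listed at all 3 IL-4 times in 561 members (62.2%), against 22.6% of all regions, 33.05% of those raised only at 1 h, 26.1% only at 6 h and 26.9% only at 24 h, and 68 members had a peak at 1 h and none at 24 h. A STAT6 peak at 1 h that was not in the basal list was in 519 members (57.5%, all regions 8.28%). No STAT6 peak at any time was in 113 members (12.5%, all regions 45.5%). The lists differ in size, with 30589 STAT6 peaks in basal cells and 24376, 23884 and 39537 at 1, 6 and 24 h, and each list stands for a group of 2 libraries with no replicate of its own, so the shares are descriptions with no test.

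EGR2 peaks were in 85 members in basal cells (9.42%, all regions 11.6%), 262 at 1 h (29.05%, against 18.2%), 179 at 6 h (19.8%, against 17.1%) and 435 at 24 h (48.2%, against 35.3%). At 24 h the share was 15.02% in regions raised only at 1 h, 46.1% in those raised only at 6 h and 56.8% in those raised only at 24 h. Regions with a STAT6 peak at 1 h and an EGR2 peak at 24 h numbered 336 (37.3%, all regions 15.6%), and 355 members (39.4%, all regions 24.1%) had EGR2 at 24 h but not in basal cells. By time of the largest fold, 24 h EGR2 peaks were in 20.0% of the 75 members highest at 1 h, 52.2% of the 644 highest at 6 h and 45.9% of the 183 highest at 24 h. The EGR2 lists held 8437, 13562, 13072 and 29407 peaks.

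The other factors were listed at more members after IL-4 than before. PPARγ, a nuclear receptor of alternatively activated macrophages, had peaks in 34 members in basal cells (3.77%, all regions 8.28%) and 458 at 24 h (50.8%, against 37.3%). PU.1, the myeloid pioneer factor, had peaks in 397 (44.0%, against 62.3%) and 674 (74.7%, against 65.1%), and C/EBPβ in 171 (18.96%, against 20.8%) and 533 (59.1%, against 38.0%). None of the 5 factors was listed at any time in 37 members (4.10%, all regions 16.4%). The 24 h lists were longer than the basal ones for each factor, at 39088 against 7627 peaks for PPARγ, 90308 against 85916 for PU.1 and 37499 against 18043 for C/EBPβ.

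With the 325 members that also met the criterion on 1 h replicate 2 alone, a set chosen after seeing the data, STAT6 peaks at 1 h were in 74.5% and EGR2 peaks at 24 h in 30.8%. The shares were 72.5% and 48.2% of all 902 and 29.3% and 35.3% of all regions. In this set the 24 h EGR2 share was thus below that of all regions, where that of the 902 was above it.

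**Figure D2:**
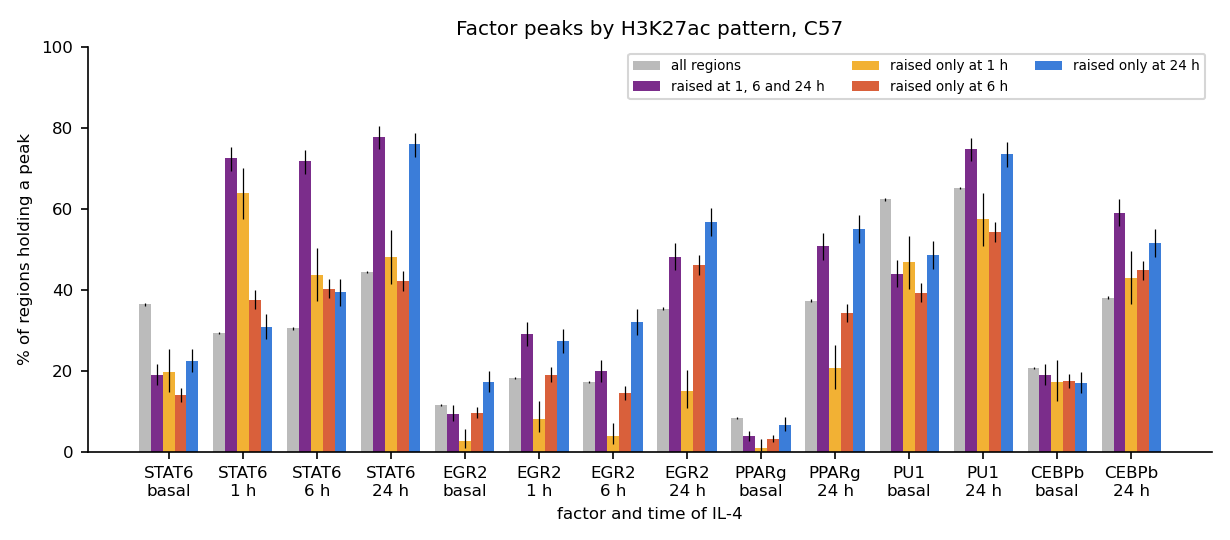
Share of regions that hold a C57BL/6J peak of each factor and time, for the 902 regions, all 77955 regions and the regions raised at 1 time only. Bars start at 0 and carry 95% exact binomial intervals, which cover counting error only. STAT6 peaks at 1 h are in 72.5% of the 902 regions and 29.3% of all regions.

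The STAT6 motif TTCNNNNGAA was in 35.3% of the members, 31.3% of regions raised only at 1 h, 10.0% only at 6 h and 14.1% only at 24 h. With 3 bases in the gap, TTCNNNGAA, another STAT spacing, 99 members (10.98%, all regions 5.63%) held it, and with 5 bases, TTCNNNNNGAA, 56 (6.21%, against 4.46%). The EGR motif GNGTGGGNG was in 73 members (8.09%, against 8.48%), the PU.1 motif GAGGAAGT in 51 (5.65%, against 8.38%), the AP-1 motif TGANTCA in 219 (24.3%, against 16.8%), the C/EBP motif TTGCNNAA in 158 (17.5%, against 11.96%) and the PPAR-RXR motif AGGNCANAGGNCA in 1 (0.111%, against 0.371%). All were searched on both strands of the central 200 bp, and a window may hold several, also where they overlap. The median GC content of the window was 47.0% in the members and 52.0% over all regions.

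The STAT6 motif lay near the region centre. In 50-bp bins it was in 13.3% and 12.6% of members in the bins centred at 25 bp on either side, against 1.75% and 1.63% of all regions there. In the bins centred 175 bp or more from the region centre it was in 1.44% to 3.10% of members. Members with a 1 h STAT6 peak held the motif in 46.9% and those without in 4.44%, against 13.2% and 3.04% of all regions with and without that peak. Of members with the motif, 96.5% had a 1 h STAT6 peak, and of those without, 59.4%. Members with no accessibility peak in basal cells (360) held the motif in 44.4% and those with one (542) in 29.2%, while 24 h EGR2 peaks were in 30.6% and 60.0%.

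**Figure D3:**
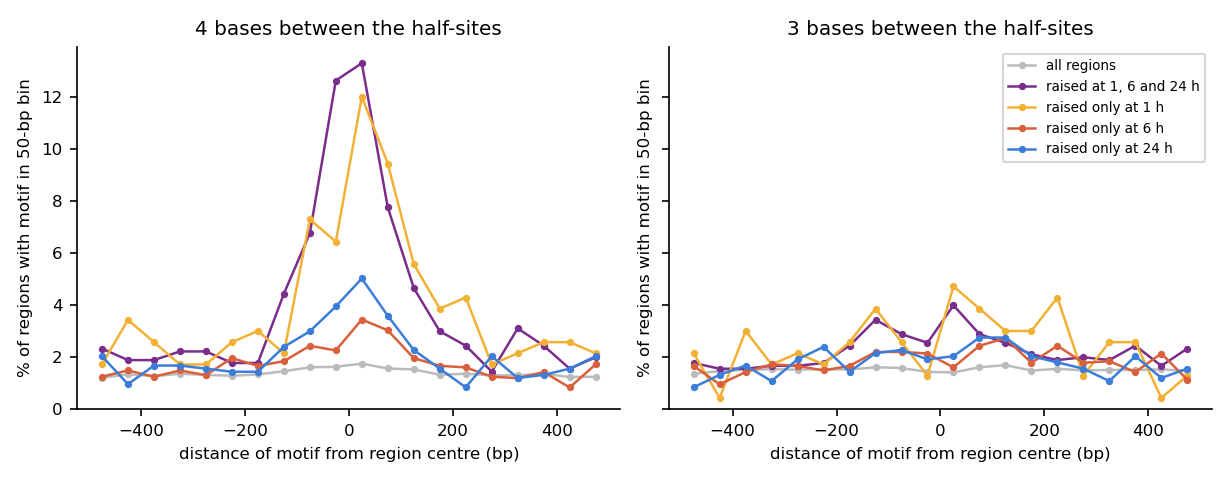
Share of regions with a motif in each 50-bp bin, against the distance of the motif from the region centre in bp, for the 902 regions and for comparison regions. The STAT6 motif reaches 13.3% of the 902 regions in a bin next to the centre, against 1.75% of all regions.

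Pol II rose at many of the members. By limma, Pol II was called higher at 23 members at 1 h (2.55%, against 0.0462% of all regions), 138 at 6 h (15.3%, against 0.428%) and 151 at 24 h (16.7%, against 0.503%). Each call had a Benjamini-Hochberg adjusted p under 0.05 over all 77955 regions. Called lower were 0 members at each time, against 0.0449%, 0.137% and 0.174% of all regions. These shares are so small that a count of 0 is no result about the members. The median log2 differences from basal were 1.83, 1.74 and 1.31 at the members and -0.18, -0.02 and -0.02 over all regions, on the log2(normalized tags + 1) scale, which understates changes at low counts. The value was above 0 in 874, 844 and 871 of the 902 members. Called at any time were 174 members, at all 3 times 21. With median-ratio scaling the medians of all regions were 0.06, -0.01 and 0.03 and those of the members 2.09, 1.76 and 1.35. Of the 325 members that also met the criterion on 1 h H3K27ac replicate 2 alone, 4.92%, 20.9% and 24.3% were called at the 3 times. The 1 h result rests on 1 library, whose spread was taken from the other times.

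Whether the replicate numbers mark true pairs of 24 h and basal libraries was not tested. With the replicate number as a block 55 members were called at 1 h and 299 at 24 h, so the counts depended on the block. The median log2 differences were then 1.21, 1.31 and 1.2 at the 3 times, against -0.28, -0.16 and -0.08 over all regions. Without basal replicate 1, the calls were 193, 432 and 307 at the 3 times. Without 6 h replicate 1 or 2 the 6 h count was 1 or 10, without basal replicate 2, 3 or 4 it was 82, 67 or 66, and the 24 h count was 36 without 24 h replicate 1, 53 without 24 h replicate 2 and 94, 82 and 84 without basal replicates 2, 3 and 4. At 1 h the count was 3 to 9 without basal replicate 2, 3 or 4, either 6 h library or 24 h replicate 1 or 2, and 45 without 24 h replicate 3.

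By the fold criterion applied to Pol II means, with a minimum of 8 normalized tags, 492 members (54.5%, against 2.76% of all regions) were higher at 1 h, 496 (55.0%, against 2.52%) at 6 h and 370 (41.0%, against 1.79%) at 24 h. The same shares were 25.3%, 3.43% and 2.15% of regions raised only at 1 h, 9.74%, 15.02% and 4.99% of those raised only at 6 h and 5.62%, 8.61% and 13.04% of those raised only at 24 h. Between 6 h and 24 h, no member and no region was called lower in Pol II (0; 0% of all regions), 16 members were lower at an unadjusted p under 0.05 (0.605% of all regions), and the median log2 difference was -0.34, below 0 in 662 members. With the replicate block that median was -0.06, and the difference was above 0 in 403 members.

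Members with a 1 h STAT6 peak (654) had median Pol II log2 differences of 1.95, 1.83 and 1.40 at 1, 6 and 24 h, and those without (248) 1.32, 1.46 and 1.02. At 24 h 126 of the former (19.3%) and 25 of the latter (10.1%) were called. With a 24 h EGR2 peak (435) the 24 h median was 1.45 and without (467) 1.21, with 87 (20.0%) and 64 (13.7%) called. Members highest in H3K27ac at 1 h had Pol II medians of 1.44, 0.74 and 0.67, those highest at 6 h 1.96, 1.94 and 1.36 and those highest at 24 h 1.43, 1.31 and 1.43. At 24 h 1 of the 75 members highest at 1 h was called, 101 of the 644 (15.7%) highest at 6 h and 49 of the 183 (26.8%) highest at 24 h.

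Genes of the IL-4 receptor and its signalling pathway had members in 5 of 16 cases, Irs2, Pik3r1, Socs1, Cish and Ptpn2, with 26 of their 276 regions among the 902. Of all 902 members 2.55%, 15.3% and 16.7% were called higher in Pol II at 1, 6 and 24 h, and of all regions 0.0462%, 0.428% and 0.503%. Pol II rose at 5, 6 and 7 of these 26 at the same times, with median log2 differences of 2.79, 2.24 and 1.76. It fell at none, where 0.0449%, 0.137% and 0.174% of all regions were called lower. Whether this list differs from the other members was not tested. A 1 h STAT6 peak was in 23 of the 26, the STAT6 motif in 12 and a 24 h EGR2 peak in 13. The other 250 regions of these genes met the Pol II fold criterion in 10, 6 and 4 cases, the 26 members in 20, 19 and 17.

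Socs1 and Cish feed back on the pathway. At an intergenic member 4.30 kb past the Socs1 start (chr16:10780736-10781736), Pol II was 16.9, 13.6, 10.7 and 3.04 normalized tags in the 4 basal libraries, 749 at 1 h, 387 and 494 at 6 h and 502, 981 and 123 at 24 h. Every IL-4 library was above every basal one, but this member was named for its large 24 h Pol II difference. The log2 differences were 6.15 (SE 0.85, limma adjusted p = 0.018), 5.38 (SE 0.66, adjusted p = 0.0013) and 5.22 (SE 0.58, adjusted p = 0.00038). H3K27ac at this member was low throughout, at 0.68 and 0 in basal cells, 24.0 and 8.95 at 1 h, 29.3 and 18.9 at 6 h and 33.95 and 13.8 at 24 h. Its basal libraries held 1 read, so the ratio of 24 h to basal reads was 64.9 with a 95% counting interval of 11.2 to 2607. These reads chose the region, so the interval tests no rise, and it leaves out the spread between replicates. The Socs1 promoter (chr16:10785619-10786619) was the more acetylated member, at 309 and 117 in basal cells and 916 and 710 at 6 h, and its 24 h Pol II log2 difference was 1.63 (limma adjusted p = 0.14). Another Socs1 member beside it, at a TTS (chr16:10786570-10787570), had H3K27ac of 6.11 and 1.43 in basal cells and 182 and 262 at 6 h, and a 24 h Pol II log2 difference of 2.70 (limma adjusted p = 0.022) that was lost without basal replicate 3 or 24 h replicate 1 or 2, with an adjusted p of up to 0.15.

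At the Cish TTS member (chr9:107302767-107303767), Pol II was 5.62, 0, 0.54 and 2.03 normalized tags in basal cells, 188 at 1 h, 176 and 154 at 6 h and 113, 157 and 26.9 at 24 h, again with no overlap of groups. The 1, 6 and 24 h log2 differences were 6.33, 6.13 and 5.08 (SE 0.89, 0.69 and 0.61, limma adjusted p = 0.018, 0.0011 and 0.00056). This member too was named for its large 24 h Pol II difference. Its H3K27ac was 6.78 and 1.43 in basal cells, 43.3 and 12.4 at 1 h, 70.9 and 57.8 at 6 h and 35.7 and 22.97 at 24 h. The Cish promoter member had a 24 h log2 difference of 2.41 (limma adjusted p = 0.10, and 0.014 without basal replicate 1).

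Of the 7 members of this list called for Pol II at 24 h, 4 lay near Socs1, 2 near Cish and 1 in an intronic region with Irs2 as its nearest gene start (chr8:11020726-11021726, log2 difference 2.25, SE 0.49, limma adjusted p = 0.039), which is named after its value was seen. Irs2 encodes an adaptor that links the receptor to PI3 kinase. Its most acetylated member was not called, and had H3K27ac of 5.43 and 15.7 in basal cells, 86.6 and 26.9 at 1 h, 59.3 and 34.7 at 6 h and 43.3 and 81.4 at 24 h, and a 24 h Pol II difference of 0.00 (limma adjusted p = 1.00) with 17.5 in basal replicate 1 and 1.6 to 2.14 in the other basal libraries. The sign of that difference was negative in 9 of the alternatives tried, edgeR, DESeq2 and the replicate block among them. Pik3r1, the regulatory subunit of PI3 kinase, had a 24 h difference of 1.15 (adjusted p = 0.47), and Ptpn2, a phosphatase of JAK and STAT proteins, 0.91 (adjusted p = 0.44).

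Genes of alternative activation had members in 11 of 27 cases, with 26 of their 220 regions, among them Arg1, Mgl2, Pdcd1lg2, Slc7a2, Tmem26, Cdh1, Il31ra, Flt1, Msx3 and Mmp12. Pol II rose at 2, 14 and 12 of the 26 at 1, 6 and 24 h, with median log2 differences of 2.57, 2.68 and 2.51. It fell at none, where 0.0449%, 0.137% and 0.174% of all regions were called lower. The called shares were 2.55%, 15.3% and 16.7% of all 902 members and 0.0462%, 0.428% and 0.503% of all regions, and the list was not tested against the other members. A 1 h STAT6 peak was in 20, the STAT6 motif in 10 and a 24 h EGR2 peak in 14. Their other 194 regions met the Pol II fold criterion in 67, 68 and 56 cases and the 26 members in 24, 24 and 19.

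Slc7a2 encodes an arginine transporter and Arg1 the arginase that breaks arginine down. At the Slc7a2 promoter (chr8:40861882-40862882), H3K27ac was 10.9 and 4.99 in basal cells, 440.0 and 30.0 at 1 h, 477 and 411 at 6 h and 396 and 159 at 24 h. Replicate 2 lay far below replicate 1 at 1 h, but above both basal libraries. Pol II was 42.4, 15.3, 2.14 and 5.06 in basal cells, 202 at 1 h, 159 and 220 at 6 h and 237, 184 and 64.1 at 24 h, all IL-4 libraries above all basal ones, with a 24 h log2 difference of 3.72 (SE 0.66, limma adjusted p = 0.014). That call was lost without basal replicate 4 or 24 h replicate 1 or 2 (adjusted p up to 0.13). At the Arg1 promoter (chr10:24927789-24928789), H3K27ac was 65.1 and 59.9 in basal cells, 434 and 123 at 1 h, 555 and 233 at 6 h and 178 and 203 at 24 h. Its Pol II was 41.2, 22.5, 19.3 and 9.11 in basal cells, 152 at 1 h, 143 and 83.9 at 6 h and 60.7, 96.9 and 38.5 at 24 h. Arg1 Pol II rose at 6 h, by 2.38 on the log2 scale (SE 0.51, limma adjusted p = 0.045), and at 24 h the difference was 1.55 (SE 0.45, adjusted p = 0.15, or 0.033 without basal replicate 1), where the lowest IL-4 library lay below the highest basal one.

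Il31ra, a subunit of the IL-31 receptor, and Pdcd1lg2, which encodes the checkpoint ligand PD-L2, had their highest mean H3K27ac at 24 h. At an intronic Il31ra member (chr13:112551345-112552345), H3K27ac was 5.43 and 3.57 in basal cells, 26.3 and 18.2 at 1 h, 113 and 136 at 6 h and 199 and 161 at 24 h. Pol II was 0, 4.01, 0.54 and 2.03 in basal cells, 9.14 at 1 h, 51.5 and 41.4 at 6 h and 70.0, 37.3 and 60.3 at 24 h, with a 24 h log2 difference of 4.65 (SE 0.52, limma adjusted p = 0.00038). At the Pdcd1lg2 promoter (chr19:29410368-29411368), H3K27ac was 8.14 and 3.57 in basal cells, 48.7 and 27.2 at 1 h, 96.3 and 74.2 at 6 h and 127 and 112 at 24 h. Its Pol II was 1.87, 2.41, 0.54 and 2.03 in basal cells, 14.7 at 1 h, 35.6 and 34.1 at 6 h and 66.0, 75.5 and 16.7 at 24 h, with a 24 h log2 difference of 4.111 (SE 0.51, limma adjusted p = 0.00078). At both members all IL-4 libraries were above all basal libraries in Pol II. The same held in H3K27ac, but those values chose the members.

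At the intronic Tmem26 member (chr10:68725181-68726181), Pol II was 13.7, 0.80, 0 and 1.01 in basal cells, 152 at 1 h, 210 and 221 at 6 h and 246, 176 and 43.6 at 24 h, a 24 h log2 difference of 5.53 (SE 0.71, limma adjusted p = 0.0010). Basal replicate 1 was again the highest basal library, and the groups did not overlap, but this member was also named for its 24 h Pol II difference. Mgl2 (chr11:70128790-70129790, with the 2 motif copies shown above) had Pol II of 4.37, 0, 2.14 and 3.04 in basal cells, 31.5 at 1 h, 40.5 and 12.7 at 6 h and 26.7, 18.7 and 35.9 at 24 h. Its 24 h difference was 3.24 (SE 0.57, limma adjusted p = 0.013, or 0.096 without 24 h replicate 1). The Msx3 member (chr7:140051458-140052458) had 7.49, 1.6, 1.07 and 1.01 in basal cells, 87.3 at 1 h, 90.9 and 65.8 at 6 h and 46.7, 78.7 and 26.9 at 24 h, and its 24 h difference was 3.94 (SE 0.51, limma adjusted p = 0.0012).

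Of the rest of this list, the Flt1 member, in the 5′ UTR of the gene for a receptor of vascular endothelial growth factor, had a 24 h Pol II difference of 3.83 (limma adjusted p = 0.018). It was not called without basal replicate 3 or 4 or 24 h replicate 1 or 2 (adjusted p up to 0.13). The Tmem26 promoter had a difference of 3.42 (adjusted p = 0.027) that was not called without the same 4 libraries (up to 0.19). Cdh1, which encodes E-cadherin, had 1.22 (adjusted p = 0.60), and Mmp12, the macrophage elastase gene, 1.09 (adjusted p = 0.52).

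**Figure D4:**
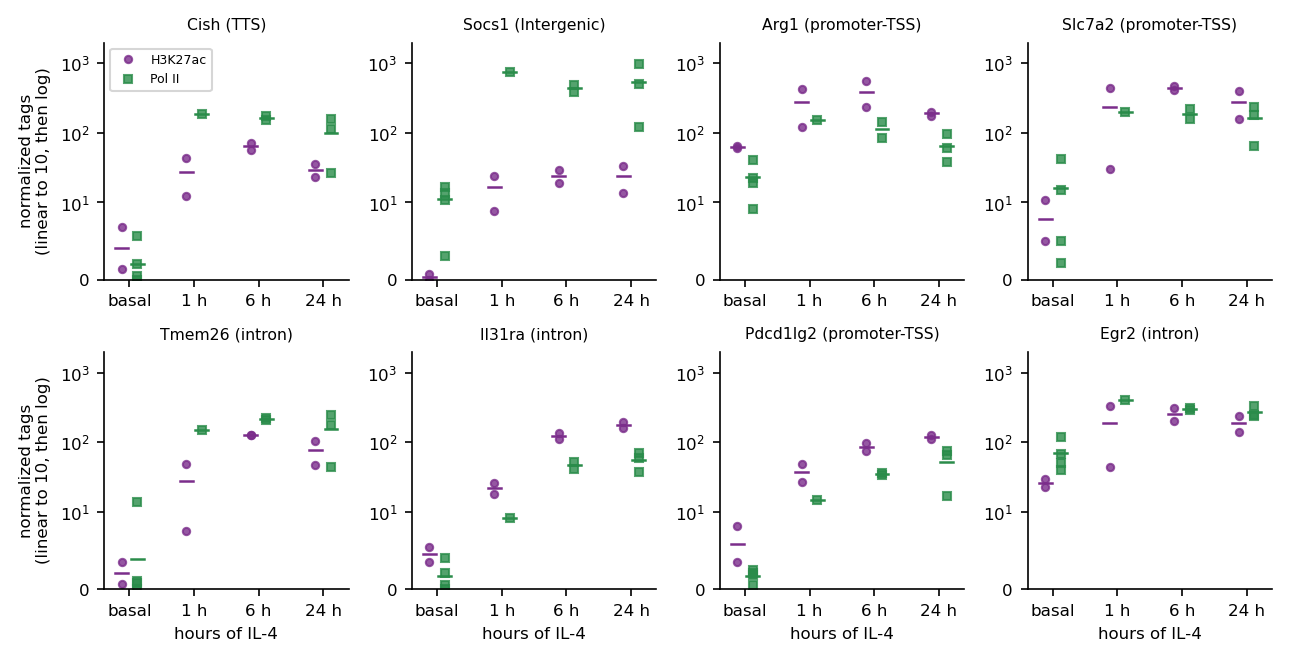
H3K27ac (circles) and Pol II (squares) in normalized tags at 8 members, against hours of IL-4. Each point is a library, each short line a mean, and the axis is linear to 10 and logarithmic above. Mean Pol II at the Cish and Socs1 members is highest at 1 h, and at Il31ra and Pdcd1lg2 at 24 h.

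Transcription factor genes had members in 6 of 32 cases, Egr2, Irf4, Klf6, Myc, Batf3 and Bhlhe40, with 20 of their 678 regions. Pol II rose at 1, 2 and 6 of the 20 at 1, 6 and 24 h, with median log2 differences of 1.92, 1.85 and 1.87, and the STAT6 motif was in 4. The shares called higher were 2.55%, 15.3% and 16.7% of all 902 members and 0.0462%, 0.428% and 0.503% of all regions. Pol II fell at none of the 20, where 0.0449%, 0.137% and 0.174% of all regions were called lower. The list was not tested against the other members. An intronic Egr2 member (chr10:67538295-67539295) had H3K27ac of 29.2 and 22.8 in basal cells, 335 and 44.4 at 1 h, 316 and 203 at 6 h and 237 and 142 at 24 h, and no STAT6 peak at any time. Its Pol II was 120, 67.4, 39.7 and 50.6 in basal cells, 405 at 1 h, 314 and 288 at 6 h and 327, 238 and 245 at 24 h, a 24 h log2 difference of 2.05 (SE 0.37, limma adjusted p = 0.017). It was not called without basal replicate 3 or 4 or 24 h replicate 1 or 2 (adjusted p up to 0.15).

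Batf3, a partner of IRF4 and IRF8, had a 24 h Pol II difference of 1.83 (limma adjusted p = 0.020) that was not called without basal replicate 2 or 3 or 24 h replicate 1 or 2 (adjusted p up to 0.14). Klf6, a zinc finger factor gene far from its member, had 1.98 (adjusted p = 0.039) and lost its call without 8 of the 10 libraries in turn (up to 0.22). The other factors were not called, with 1.90 for Irf4 (adjusted p = 0.11), 2.28 for Bhlhe40 (adjusted p = 0.066, or 0.00066 without basal replicate 1) and 1.14 for Myc (adjusted p = 0.48). Inflammatory genes had 2 members in 15 genes and 144 regions, near Ccl2 and Tlr4. Neither was called for Pol II, with 24 h differences of 1.04 (adjusted p = 0.68) and 0.51 (adjusted p = 0.95), and H3K27ac at the Ccl2 member was 4.75 and 5.70 in basal cells, 23.2 and 20.7 at 1 h, 30.0 and 40.8 at 6 h and 21.2 and 48.6 at 24 h.

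The largest of the smallest H3K27ac folds were near Slc7a14, Ang5, Cry1, Slc7a2 and Socs1. The Slc7a14 member had 1.36 and 0.71 in basal cells, 119 and 13.8 at 1 h, 143 and 232 at 6 h and 86.6 and 52.5 at 24 h, and its basal libraries held 3 reads, a 6 h to basal ratio of reads of 185 (95% counting interval 63.0 to 900.4). These reads chose the region, so this interval too tests no rise. Pol II at the Slc7a14 member rose at 24 h by 2.82 on the log2 scale (limma adjusted p = 0.017), a call lost without basal replicate 3 or 24 h replicate 1 or 2 (adjusted p up to 0.11). The Ang5 member had 2.04 and 0 in basal cells, 83.5 and 28.6 at 1 h, 206 and 262 at 6 h and 202 and 221 at 24 h. Its Pol II was 0, 0, 0.54 and 0 in basal cells, 29.5 at 1 h, 62.4 and 48.3 at 6 h and 62.7, 87.8 and 48.7 at 24 h, and 1 basal read against 325 at 24 h gave a ratio of 414 (95% counting interval 73.8 to 16402, limma adjusted p = 3.4e-06). The Ang5 member was also named for its large 24 h Pol II difference, so the choice favoured this ratio and this call. Cry1, a repressor of the circadian clock, had 0.68 and 1.43, then 131 and 16.2, 198 and 145, and 57.7 and 53.2 at 1, 6 and 24 h. Its 24 h Pol II difference was 2.56 (limma adjusted p = 0.19, or 0.0017 without basal replicate 1). Of the 34 members named for a test, 18 were called higher in Pol II at 24 h, and 9 of these, at Pdcd1lg2, Il31ra, Msx3, Ang5, Ang2, Rmi2, Cish, intronic Tmem26 and intergenic Socs1, were called with each library left out in turn. The 34 include members named for a large 24 h Pol II difference, such as those at Ang5, Ang2, Cish, intronic Tmem26 and intergenic Socs1. The choice favoured their calls, so these counts are no result about the members. Of all 902 members 16.7% were called at 24 h, and of all regions 0.503%.

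Dimethylation of lysine 4 of histone H3 (H3K4me2), a mark of enhancers and promoters, was matched at 683 members through 665 sites of the C57BL/6J strain table. It rose at 30 sites (0.179% of all sites were called) and fell at 4 (0.0576%) after 24 h, with a median log2 difference of 0.34 against -0.69 over all sites, and 86 rose with median-ratio scaling, where the median of all sites was -0.01 and that of the member sites 1.01. It was 4.08 and 2.11 normalized tags in basal cells and 39.5 and 23.4 at 24 h at intronic Tmem26 (log2 difference 2.98, limma adjusted p = 8.6e-05). At Taf11 it was 4.08 and 7.04, then 63.5 and 35.9 (log2 difference 2.93, limma adjusted p = 1.9e-05). The 4 sites that fell lay near Rnf19b, Bhlhe40, Nfil3 and Egr2, by 2.14, 1.99, 1.92 and 1.87 on the log2 scale, of which Rnf19b and Nfil3 are named after their values were seen. With median-ratio scaling 3 sites were called lower. At the Egr2 member H3K4me2 went from 104 and 199 to 47.2 and 31.5 while H3K27ac and Pol II rose. Without 24 h replicate 2 no site was called higher, and without 24 h replicate 1 51 were called higher and 81 lower, while 14 were called higher without either basal replicate and 0 lower without any library but 24 h replicate 1.

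Trimethylation of the same lysine (H3K4me3), a promoter mark, was called higher at 0 of the 665 member sites (0% of all sites) by limma and at 278 at an unadjusted p under 0.05 (7.62% of all sites). The median log2 difference was 1.09 against 0.11 over all sites. edgeR called 24 sites higher, DESeq2 29, and limma with the replicate block 211.

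Libraries of the other strains, which the choice did not use, showed more H3K27ac after 24 h of IL-4 at most matched sites. By limma, 269 of 506 sites rose in BALB/cJ (1.6% of all sites called), 26 of 576 in NOD/ShiLtJ (0.0566%), 121 of 481 in PWK/PhJ (0.487%) and 163 of 442 in SPRET/EiJ (0.994%). None of the member sites was called lower, against 0.653%, 0%, 0.0482% and 0.192% of all sites in the same order of strains. Median log2 differences were 2.05, 2.10, 1.77 and 1.58 at the member sites and -0.30, -0.20, -0.18 and -0.09 over all sites, above 0 in 502, 574, 469 and 425 sites. With median-ratio scaling the medians of all sites were 0.02, 0.01, 0.02 and -0.01 and those of the member sites 2.36, 2.31, 1.97 and 1.66. That scaling gave 338, 0, 55 and 135 member sites called by limma, with 490 of the NOD/ShiLtJ sites at an unadjusted p under 0.05. For NOD/ShiLtJ edgeR called 0 and DESeq2 314. In limma, the replicate block gave 388, 514, 339 and 290 member sites higher in BALB/cJ, NOD/ShiLtJ, PWK/PhJ and SPRET/EiJ, and none lower. Over all sites it gave 1949, 4458, 2753 and 2367 higher and 2193, 9281, 2895 and 1483 lower, so the counts depended strongly on the block. Each strain had only 2 pairs, and whether the replicate numbers mark true pairs was not tested. By the fold criterion 392 (77.5%, against 2.84% of all sites), 450 (78.1%, against 3.24%), 316 (65.7%, against 3.1%) and 251 (56.8%, against 2.64%) were higher. Among regions raised only at 24 h in C57BL/6J the same shares were 38.6%, 51.1%, 30.1% and 25.7%, and among those raised only at 6 h 6.31%, 9.47%, 12.9% and 7.40%. Of 289 members matched in all 4 strains, 270 had a difference above 0 in each, and 168 members were matched in none. Each strain has its own table and fit, so no test was made between strains.

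Single libraries decided several of the limma counts made without the block. Without either 24 h library the count was 0 in NOD/ShiLtJ, in PWK/PhJ and in SPRET/EiJ, and without basal replicate 1 or 2 it was 298 or 220 in NOD/ShiLtJ and 45 or 75 in SPRET/EiJ. In BALB/cJ it was 155 or 131 when basal replicate 1 or 2 was left out, and 176 when 24 h replicate 1 was.

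Members with the STAT6 motif had median strain differences of 2.47, 2.55, 2.28 and 2.02 in BALB/cJ, NOD/ShiLtJ, PWK/PhJ and SPRET/EiJ, and members without it 1.87, 1.91, 1.49 and 1.34. With a 1 h STAT6 peak the medians were 2.25, 2.26, 1.99 and 1.76 and without 1.47, 1.72, 1.2 and 0.89.

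The members with the largest smallest difference over the 4 strains lay near Rmi2, which encodes a subunit of the BLM dissolvasome, Taf11, a subunit of TFIID, and Gpr84, a receptor for medium-chain fatty acids. These 3 were named for those differences, so the choice favoured their calls and the lack of overlap between groups. At Rmi2 (chr16:10843696-10844696) H3K27ac went from 8.82 and 10.1 to 282 and 134.3 in BALB/cJ, from 14.1 and 3.97 to 328 and 159 in NOD/ShiLtJ, from 13.7 and 9.40 to 314 and 182 in PWK/PhJ and from 5.13 and 2.63 to 166 and 85.1 in SPRET/EiJ. Basal and 24 h libraries did not overlap in any strain. The log2 differences were 4.23, 4.73, 4.28 and 4.67 (limma adjusted p = 1.1e-08, 0.050, 0.0016 and 0.00021), and NOD/ShiLtJ was just past the threshold. At Taf11 (chr17:27967718-27968718), which holds the STAT6 motif, the levels went from 0.73 and 1.19 to 98.6 and 75.8, from 3.32 and 0.79 to 78.1 and 123, from 5.15 and 3.92 to 67.3 and 109 and from 4.27 and 1.98 to 51.1 and 54.9 in the same order of strains. Gpr84 had log2 differences of 3.99, 4.09, 4.65 and 3.76. For these 3 members the PWK/PhJ and SPRET/EiJ calls and the NOD/ShiLtJ call at Taf11 were lost without either 24 h library, with adjusted p of up to 0.94 in PWK/PhJ, and the BALB/cJ call at Rmi2 without basal replicate 1 (adjusted p = 0.056).

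At Msx3, H3K27ac went from 5.14 and 2.38 to 195 and 120 in BALB/cJ and from 3.32 and 4.76 to 267 and 167 in NOD/ShiLtJ, but from 5.15 and 0 to 10.1 and 1.91 in PWK/PhJ. The PWK/PhJ log2 difference was 1.2 (limma adjusted p = 0.74), and its basal libraries held 3 reads and its 24 h libraries 17, a ratio of 4.16 (95% counting interval 1.203 to 22.2). At Slc7a14 the basal level in PWK/PhJ was 61.8 and 64.2, against 1.36 and 0.71 in C57BL/6J, and the difference was 2.01 (limma adjusted p = 0.12). The levels come from tables normalized to each library's total, and the difference between strains was not tested.

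**Figure D5:**
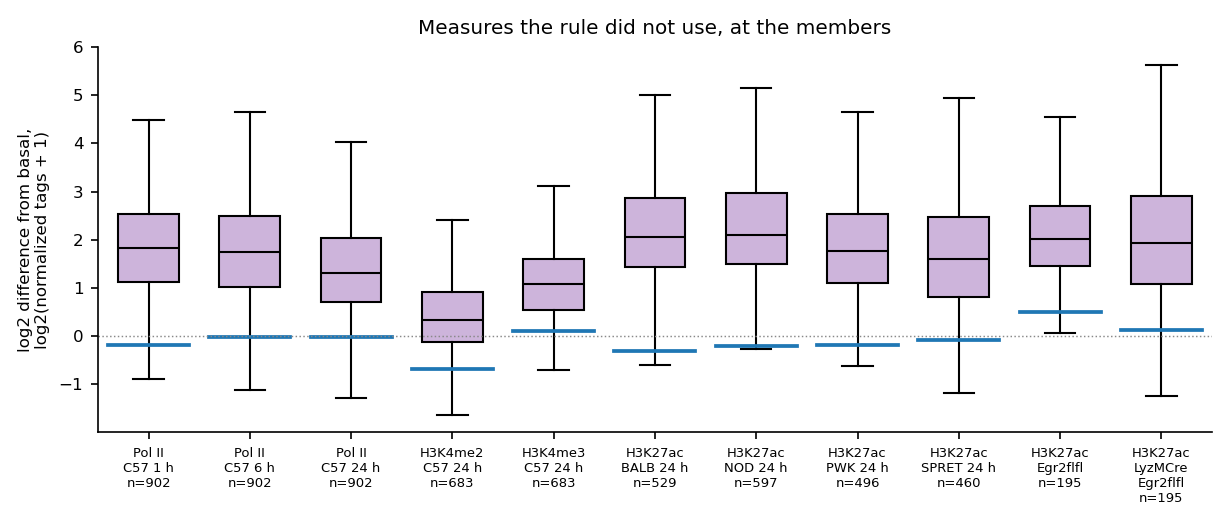
log2 difference from basal, on the log2(normalized tags + 1) scale, of the measures that did not choose the regions: Pol II at 3 times, H3K4me2 and H3K4me3, H3K27ac in 4 other strains and in the Egr2 genotypes. Boxes are quartiles over the n members written under them, whiskers reach up to 1.5 interquartile ranges, and blue lines are the median of all features tested. Every box median is above its blue line, with Pol II at 1.83, 1.74 and 1.31.

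EGR2 tags were counted at 421 EGR2 sites inside 431 members. By limma no site was called higher than basal at 1, 6 or 24 h (0, 0 and 0; 0% of all 30675 sites at each time), and 24, 71 and 123 were at an unadjusted p under 0.05 (0.359%, 3.47% and 3.38% of all sites). The median log2 differences were -0.16, 0.60 and 1.30, against -0.59, 0.17 and 0.66 over all sites, and with median-ratio scaling they were 0.38, 0.37 and 0.66, against -0.03, -0.05 and 0.02 over all sites, so the sign at 1 h and the size at 6 and 24 h depended on the scaling. DESeq2 called 17, 17 and 11 sites higher.

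Around EGR2 peaks gained by 24 h, a table of 4677 sites, 186 sites lay in 195 members. In Egr2 fl/fl cells IL-4 raised H3K27ac at 172 of the 186 (25.6% of all sites called) and lowered it at 0 (2.54%), with a median log2 difference of 2.03 against 0.50 over all sites. In LyzM-Cre Egr2 fl/fl cells it raised 150 (14.4%) and lowered 1 (4.08%), with a median of 1.94 against 0.14. The lowered site lay near Uvrag, named after its value was seen. Between genotypes at 24 h, 52 sites were lower in LyzM-Cre Egr2 fl/fl (23.2% of all sites) and 1 higher (1.41%), with a median of -0.38 against -0.50 over all sites. But with median-ratio scaling, under which the median of all sites was -0.03, 29 were lower and 36 higher. Of all 4677 sites that scaling called 496 lower and 536 higher. The difference of the IL-4 responses between genotypes was called at no site in either direction by limma (0 lower and 0 higher; 0% and 0% of all sites), with 22 lower and 15 higher at an unadjusted p under 0.05 (11.7% and 1.48% of all sites) and a median of -0.01 against -0.27. With median-ratio scaling that median was 0.32 against 0.04, so its sign depended on the scaling, while the medians of the IL-4 responses were 1.54 against 0.05 in Egr2 fl/fl and 1.77 against -0.02 in LyzM-Cre Egr2 fl/fl cells. Without Egr2 fl/fl 24 h replicate 1 or 2, 28 or 30 sites were lower between genotypes.

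The members with the lowest genotype difference lay near Taf11, Tas2r108 and Pklr. They, and Mpp6 below, were named for their 24 h genotype difference, so the choice favoured their calls and the lack of overlap. At Taf11, H3K27ac was 2.56 and 4.75 in basal and 117 and 93.1 in 24 h Egr2 fl/fl cells, and 2.01 and 3.36 in basal and 7.27 and 11.03 in 24 h LyzM-Cre Egr2 fl/fl cells. The 24 h groups did not overlap, and the difference was -3.40 on the log2 scale (SE 0.46, limma adjusted p = 0.00020), while the genotype difference of the IL-4 response was -3.08 (SE 0.65, limma adjusted p = 0.087). At Tas2r108, a member near a bitter taste receptor gene, H3K27ac was 67.3 and 44.8, then 261 and 277, in Egr2 fl/fl cells and 27.1 and 19.6, then 31.2 and 32.5, in LyzM-Cre Egr2 fl/fl cells, a 24 h difference of -3.04 (SE 0.27, limma adjusted p = 2.4e-05). STAT6 tags there were 19.9 and 30.98 in 24 h Egr2 fl/fl cells and 4.12 and 4.51 in 24 h LyzM-Cre Egr2 fl/fl cells (limma adjusted p = 0.17).

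Near Pklr, the liver and erythrocyte pyruvate kinase gene, the 24 h levels were 48.2 and 27.6 against 2.08 and 8.13 (difference -2.82, SE 0.63, limma adjusted p = 0.0046, and up to 0.086 without replicate 1 of either 24 h group). At the Il31ra member they were 65.3 and 115 against 12.5 and 22.6 (difference -2.30, SE 0.53, limma adjusted p = 0.0053). At other members the 24 h levels of the genotypes lay closer. Msx3 had 210.1 and 229 against 291 and 304 (difference 0.44, adjusted p = 0.28), and intronic Tmem26 115 and 85.4 against 67.5 and 59.8 (difference -0.63, adjusted p = 0.26). The highest difference was near Mpp6, at 80.4 and 98.9 against 137 and 211 (difference 0.92, SE 0.32, limma adjusted p = 0.047), and it was not called without any of the 4 libraries at 24 h in turn (up to 0.31). The Egr2 member itself had a difference of -0.19 (adjusted p = 0.63).

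The same 186 sites gained STAT6 tags in Egr2 fl/fl cells at 102 sites (11.8% of all sites called), with a median log2 difference of 2.18 against 1.04 over all sites. Between genotypes at 24 h no site was called lower (0; 0.0214% of all sites), with 34 at an unadjusted p under 0.05 (14.9%) and a median of -0.90 against -0.79. PPARγ was called higher with IL-4 at 0 sites (0%) and at 82 unadjusted (20.1% of all sites, median 3.05 against 1.66), and lower between genotypes at 0 (0%) and at 35 unadjusted (14%, median -1.85 against -1.28). PU.1 rose at 51 (8.19%, median 0.75 against 0.34) and was lower between genotypes at 15 (9.36%, median -0.20 against -0.33). C/EBPβ rose at 15 (2.1%, median 1.43 against 0.74) and was lower between genotypes at 15 (8.25%, median -1.14 against -1.14). With median-ratio scaling the medians over all sites were 0.13 for STAT6 with IL-4, 0.49 for PPARγ, 0.11 for PU.1 and 0.30 for C/EBPβ, and those of the member sites 1.15, 1.67, 0.49 and 0.92. Between genotypes, the same scaling moved the member-site medians to -0.23 for STAT6, -0.92 for PPARγ, 0.04 for PU.1 and -0.13 for C/EBPβ, against -0.15, -0.61, -0.11 and -0.22 over all sites. It gave 9 sites lower and 6 higher for PU.1 and 0 lower for C/EBPβ, where 19 were lower at an unadjusted p under 0.05 by limma.

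These factor counts rested on few libraries. The STAT6 count with IL-4 was 8, 34 and 42 without Egr2 fl/fl 24 h replicate 1, 24 h replicate 2 and basal replicate 2. The PU.1 count with IL-4 was 0 and 1 without 24 h replicate 1 and 2 and 22 and 13 without basal replicate 1 and 2, and between genotypes it was 0 without either Egr2 fl/fl 24 h library and 4 and 6 without LyzM-Cre Egr2 fl/fl 24 h replicate 1 and 2. The C/EBPβ count with IL-4 was 0 without either 24 h library or basal replicate 1 and 3 without basal replicate 2, and between genotypes 0 without either Egr2 fl/fl 24 h library and 4 and 0 without LyzM-Cre Egr2 fl/fl 24 h replicate 1 and 2.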

How the data were processed

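Chromatin immunoprecipitation with sequencing (ChIP-seq) was done by the authors in BMDMs, and the build is mm10. Per the submitters' processing notes the tools include Bowtie2 and HOMER. The values are normalized coverage: the signal the authors deposited is the number of tags in each region, scaled to 10000000 tags a library. Each peak list the authors deposited carries a score and holds the peaks reproducible between the replicates of a group. Whole reads were recovered for 100% of the values within 0.1 read, so edgeR 4.0.16 and DESeq2 1.42.0 were run on those reads as alternatives. Their calls at the members stand in the closing section.

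The members and the gene lists were chosen with earlier results of these data known. Tests were fitted over the whole of each table with limma 3.58.1 (R 4.3.3, empirical Bayes with trend) on log2(normalized tags + 1), with no filter on low values, and adjusted by Benjamini-Hochberg over all regions. The alternatives were another pseudocount, a filter on low values, median-ratio scaling, the replicate block, and each library left out in turn. For Pol II at 24 h and basal, the deviations of same-numbered libraries from their group means correlated at 0.109, 0.226 and 0.192 for the 3 numbers. Such values do not show that the numbers mark true pairs, so the block was kept as an alternative. Sites of other tables were matched by centres within 500 bp, and EGR2 sites by a centre inside a member. The deposited table names no nearest gene, so the nearest protein-coding gene start of GENCODE vM21 was used. Of 12523 regions annotated as promoter 84.9% lay within 1000 bp of such a start, and of 25569 intergenic regions 2.60%. Sequences were read from the mm10 (GRCm38) reference.

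Named were, for each gene of the lists, its member with the highest mean of the IL-4 H3K27ac means; the 5 members with the largest smallest fold; the 5 with the largest 24 h Pol II difference; genes with 5 or more members; the 3 largest by the smallest strain difference; the 3 lowest and 3 highest by Egr2 genotype; and the 3 on either side of the limit. A member that this rule names is not reported here. In the tables, 4 columns that match no sample were not used. Intervals cover counting error only. No 2 libraries of a group were identical, and their chi-square per degree of freedom was 1.25 to 14.8. Python 3.11.15 with numpy 2.4.6, pandas 2.3.3, scipy 1.17.1 and matplotlib 3.10.9 was used for the rest.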

Additional observations from a re-analysis of the deposited data

Results flagged for a closer look

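In 9 of the named members, 1 of the 4 basal Pol II libraries lay far from the other 3 by Dixon's test at the 95% level, which chance alone does in about 1 of 20 groups. In 7 of them the library was basal replicate 1, which was also the highest of the basal libraries over all members: 17.5 normalized tags at Irs2 (the others 1.6 to 2.14), 7.49 at Msx3 (1.01 to 1.6), 32.5 at Klf6 (8.10 to 9.65), 96.7 at Bhlhe40 (10.1 to 21.7), 31.8 at Cry1 (1.01 to 1.6), 13.7 at intronic Tmem26 (0 to 1.01) and 30.0 at Rmi2 (2.03 to 2.41). In the other 2 it was basal replicate 2 at Flt1, with 12.8 (1.07 to 2.5), and basal replicate 3 at Ang5, with 0.54 (0 in the others), which is 1 read.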

How the results depend on the processing

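Counts below are of members or member sites. With a minimum mean of 32 the criterion gave 511 members and with median-ratio scaling 1604. Median-ratio scaling gave 66 for Pol II at 1 h, 86 for H3K4me2, 0 for NOD/ShiLtJ, 55 for PWK/PhJ, 29 lower and 36 higher by genotype, 24 for STAT6 with IL-4, 9 and 26 for PU.1 by genotype and with IL-4, 0 and 1 for C/EBPβ and 2 for EGR2 at 6 h. A pseudocount of 5 gave 10 for Pol II at 1 h, 48 for NOD/ShiLtJ, 7 higher by genotype, 4 lower and 2 higher in the response by genotype, 12 for STAT6 by genotype, 29 and 36 for C/EBPβ by genotype and with IL-4, and 5 and 7 for EGR2 at 6 and 24 h. A filter on low values gave 10 for Pol II at 1 h, 72 for NOD/ShiLtJ and 18 for PPARγ with IL-4. The replicate block gave 55 and 299 for Pol II at 1 and 24 h, 50 for H3K4me2, 211 for H3K4me3, 514, 339 and 290 for NOD/ShiLtJ, PWK/PhJ and SPRET/EiJ, 9 higher by genotype, 4 and 4 in the response, 15 for STAT6 by genotype and 10 and 16 for EGR2 at 6 and 24 h. Outside Pol II fewer than 3 pairs share a number, and the lowest pair correlation was -0.0728, for EGR2 at 6 h with basal. For H3K27ac at 24 h with basal it was 0.435, 0.492, 0.441 and 0.261 in BALB/cJ, NOD/ShiLtJ, PWK/PhJ and SPRET/EiJ. edgeR gave 140 for Pol II at 1 h, 104 for H3K4me2, 24 for H3K4me3, 0 and 71 for NOD/ShiLtJ and PWK/PhJ, 42 higher by genotype, 2 higher in the response, 1 and 41 for STAT6 by genotype and with IL-4, and 2 and 29 for C/EBPβ. DESeq2 gave 194, 281 and 262 for Pol II, 67 higher and 1 lower for H3K4me2, 29 for H3K4me3, 314 and 201 for NOD/ShiLtJ and PWK/PhJ, 26 lower and 33 higher by genotype, 1 higher in the response, 9 for STAT6 with IL-4, 5 and 17 for PU.1, 1 for C/EBPβ by genotype and 17, 17 and 11 for EGR2. The cause of these differences was not tested.

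With a peak centre within 150 bp of the region centre, shares were 16.1%, 63.9%, 64.7% and 67.3% for STAT6 at basal, 1, 6 and 24 h, 7.32%, 24.3%, 15.3% and 41.1% for EGR2, 39.7% for PPARγ at 24 h, 33.1% and 60.2% for PU.1 and 14.3% and 50.2% for C/EBPβ. With peaks at or above their list's median score they were 10.3%, 65.5%, 60.1% and 67.6%, 4.10%, 16.3%, 9.65% and 29.7%, 1.77% and 33.04% for PPARγ, 32.8% and 62.9% and 12.7% and 48.6%. In the central 300 bp, motif shares were 42.1% for STAT6, 16.1% and 8.87% for 3 and 5 bases in the gap, 11.8% for EGR, 29.5% for AP-1 and 23.3% for C/EBP. Chosen after seeing the data, the members that also met the criterion on 1 h replicate 2 alone had Pol II called at 1 h in 4.92%, STAT6 peaks in 26.8% in basal cells and 85.2% at 24 h, EGR2 peaks in 1.85%, 24.3%, 14.2% and 30.8%, PU.1 in 53.5% and 78.5%, C/EBPβ in 21.8% in basal cells, and motifs in 47.4% (STAT6), 5.23% (EGR), 8.31% (PU.1), 12.9% (C/EBP) and 0% (PPAR-RXR). Leaving out the 50 members (5.54%) at least 50% repeat-masked, also chosen after seeing the data, kept every peak and motif share inside its 95% counting interval. It removed 1, 2 and 2 of the Pol II calls at 1, 6 and 24 h. So few members were left out that little change was possible.

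Leaving out 1 library at a time gave 344 to 1560 members. Pol II ranged from 3 to 193, 1 to 432 and 36 to 307 at 1, 6 and 24 h and from 0 to 0 for 24 h against 6 h, H3K4me2 from 0 to 51 higher and 0 to 81 lower, and H3K4me3 from 0 to 0. The strains ranged from 131 to 299, 0 to 298, 0 to 171 and 0 to 75 in BALB/cJ, NOD/ShiLtJ, PWK/PhJ and SPRET/EiJ. By genotype the range was 28 to 55 lower and 0 to 4 higher, with IL-4 149 to 173 in Egr2 fl/fl and 132 to 150 in LyzM-Cre Egr2 fl/fl cells, and for the response 0 to 0 lower and 0 to 2 higher. By genotype and with IL-4 the ranges were 0 to 2 and 8 to 108 for STAT6, 0 to 5 and 0 to 7 for PPARγ, 0 to 18 and 0 to 63 for PU.1 and 0 to 16 and 0 to 18 for C/EBPβ, and for EGR2 0 to 3, 0 to 18 and 0 to 22.

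Pol II at Irs2 at 24 h, 0.00, turned to -0.10 with a pseudocount of 5, -0.20 with the replicate block, -0.61 with edgeR and -0.59 with DESeq2, and ranged from -0.28 to 0.67 with each library left out in turn.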
